A study of Mus musculus with 12 samples.

Results

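Sphkap, Cpa1, Sybu, Nrn1, Tph2, Vav3 and Gbp2b are 7 genes with far lower array signal in Cbx2 knockout than in wild-type gonads of mouse embryos at E11.5, the stage at which the labels place all samples. They were picked for large knockout minus wild-type losses in these same data, so the size of those losses is described here without a test. They are 7 of the 18193 genes with a probe set of their own, and they are measured by 10 of the 45037 probe sets that are not controls. Sphkap has 2 probe sets, Vav3 has 3, and each of the other genes has 1.

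The embryos came from crosses between Cbx2 heterozygotes and formed 4 groups: Cbx2 knockout XX (KO XX), Cbx2 knockout XY (KO XY), wild-type XX (WT XX) and wild-type XY (WT XY). Each group has 3 arrays, and each array holds gonadal cells of 2 or 3 individuals of one genotype, pooled. The cells were cut by laser from 30 µm frozen sections stained with hematoxylin, at sites chosen by tissue form and by staining for the gonadal transcription factor GATA4. From each pool, 15 ng of total RNA was amplified in a pair of rounds and hybridised to an Affymetrix array. Values are the authors' log2 expression values, so a difference of 1 is a doubling, and each error is a standard deviation (SD) of 3 pools or a standard error (SE) of a difference. P-values measure the spread between pools and not between embryos.

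Cbx2 encodes a chromobox subunit of Polycomb repressive complex 1, which binds trimethylated histone H3 lysine 27 and keeps developmental genes silent. At this age the gonad is still bipotential, and its somatic cells, which arise from the coelomic epithelium, depend on factors such as Nr5a1, Gata4, Wt1 and Lhx9. The 7 genes are better known from other organs. Sphkap encodes an anchoring protein for the type I regulatory subunit of protein kinase A that also binds sphingosine kinase, Cpa1 a digestive carboxypeptidase of the exocrine pancreas, and Sybu syntabulin, an adaptor that attaches syntaxin vesicles and mitochondria to the kinesin-1 motor. Nrn1 encodes neuritin, a lipid-anchored surface protein that promotes neurite growth, and Tph2 the tryptophan hydroxylase of serotonin neurons, the rate-limiting enzyme of serotonin synthesis. Vav3 encodes a guanine nucleotide exchange factor, and Gbp2b a guanylate-binding protein, a large GTPase induced by interferon-gamma.

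The array labels could be checked only in part. Xist lay between 12.55 and 12.88 on every XX array and between 5.81 and 6.09 on every XY array, so each array matched its labelled sex. The signal of Cbx2 itself was not lower in the arrays labelled KO: its brighter probe set averaged 9.34 in KO XX and 8.60 in WT XX, and 9.45 in KO XY and 8.92 in WT XY. The sources used here do not say which exons the knockout removes, so this probe set checks nothing about the genotype. For the WT samples, the source name in the labels is that of KO XX, against both their titles and their genotype entries. KO and WT therefore mean arrays so labelled in title and genotype, and every direction below rests on those labels.

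The WT XX arrays were not alike. WT XX replicate 1 had a mean correlation over all genes of 0.988 with the rest of its own group. Its mean correlation with the WT XY arrays was 0.995. Replicates 2 and 3 had 0.991 each with the rest of the group and 0.989 each with WT XY. With the KO XX arrays they had 0.983 and 0.984, and replicate 1 had 0.976. Which of the WT XX arrays is atypical cannot be told from these values. Differences in XX are also given without replicate 1. Leaving out replicate 3 instead gave the largest XX loss of any alternative for Sphkap (-4.45), Cpa1 (-3.82), Tph2 (-3.80) and Vav3 (-3.65). The Gapdh 3' minus 5' control difference, which grows as transcripts are shortened, lay between 4.78 and 5.0 in KO XY and between 3.90 and 4.57 in WT XY. It lay between 3.81 and 4.23 in KO XX and between 3.83 and 4.72 in WT XX. The part of shortened RNA in the XY results was not tested beyond a fit with this difference as a covariate. In XY the difference did not overlap between KO and WT, so that fit cannot fully separate it from genotype. A call lost with the Gapdh covariate in XY therefore does not measure the part of shortened RNA.

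Cell markers moved with genotype as well. At an adjusted p under 0.05, 5.4% of all genes fell and 8.3% rose in KO XX. In KO XY, 6.75% of all genes fell and 6.56% rose. Of 5 markers of gonadal somatic cells, 3 fell in both sexes. Nr5a1 fell by 2.04 ± 0.16 in KO XX (adjusted p = 1.72e-06) and fell by 2.35 ± 0.16 in KO XY (adjusted p = 3.61e-07). Gata4, whose protein guided the capture, had differences of -1.41 ± 0.16 in XX and -1.49 ± 0.16 in XY (adjusted p = 4.23e-05 and 2.29e-05), and Lhx9 of -0.96 ± 0.17 and -1.21 ± 0.17 (adjusted p = 0.00152 and 0.00021). With all probe sets of a gene averaged, the differences shrank to -1.08 in each sex for Nr5a1 and to -0.88 in XX and -0.85 in XY for Gata4, and still passed. Wt1 (adjusted p = 0.465 in XX and 0.341 in XY) and Emx2 (0.298 and 0.487) did not pass. The mean level of the 5 markers ran from 9.59 to 10.04 in KO XX against 10.65 to 10.87 in WT XX, and from 9.67 to 9.85 in KO XY against 10.82 to 10.86 in WT XY. Of 11 endothelial markers, 7 fell in KO XX and 9 in KO XY, with mean levels of 6.67 to 7.32 in KO XX against 7.41 to 7.62 in WT XX, and 6.50 to 7.12 in KO XY against 7.68 to 7.80 in WT XY. Of 8 markers of the coelomic epithelium, 5 rose and 1 fell in each sex, with mean levels of 9.33 to 9.57 in KO XX against 8.51 to 8.59 in WT XX, and 9.38 to 9.39 in KO XY against 8.63 to 8.74 in WT XY. In these bulk samples, fewer cells of a type and less RNA per cell cannot be told apart, and the part of cell makeup in the results below was not tested.

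Markers of the pancreas, where Cpa1 is best known, and of neurons, where Tph2, Nrn1 and Sybu are, were also counted. The counts stand beside shares of all genes of 5.4% lower and 8.3% higher in KO XX, and 6.75% and 6.56% in KO XY. Of 9 exocrine pancreas markers, 1 fell in KO XX (Ctrb1, -0.48, adjusted p = 0.0338) and 1 rose in KO XY (Cela1, 0.67, adjusted p = 0.0041). Their mean level was 5.37 to 5.57 in KO XX against 5.58 to 5.68 in WT XX, and 5.59 to 5.75 in KO XY against 5.61 to 5.76 in WT XY. Of 8 neuron and neural crest markers, 2 rose and 1 fell in each sex. Those that rose included Snap25, described further below (0.70 in each sex, adjusted p = 0.0383 in XX and 0.038 in XY). The marker that fell was Gap43, a growth cone protein (-1.45 ± 0.21 in XX, adjusted p = 0.000281, and -1.16 ± 0.21 in XY, adjusted p = 0.00162). The mean level of the 8 markers was 5.55 to 5.84 in KO XX against 5.52 to 5.70 in WT XX, and 5.59 to 5.84 in KO XY against 5.39 to 5.59 in WT XY. Of 10 blood and macrophage markers, 2 rose in KO XX and 4 in KO XY. Of 8 germ cell markers 4 rose in KO XX and none in KO XY, and of 8 mesonephros markers 1 rose and 1 fell in KO XX and 1 fell in KO XY. The mesonephros marker that fell was Calb1, with a difference of -3.45 ± 0.28 in XY. In XX it had 6.63, 6.56 and 7.49 in KO, against 9.55, 9.11 and 8.28 in WT.

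The genes lie on 6 chromosomes (build GRCm38.p6). Sphkap spans chr1:83255442-83408411, Cpa1 chr6:30639218-30645361, Sybu chr15:44671856-44788070, Nrn1 chr13:36725622-36734477 and Tph2 chr10:115078641-115185022. Vav3 spans chr3:109340465-109685694 and Gbp2b chr3:142594816-142619179. Sequence around the transcription start, from 250 bases before it to 50 after it, was taken from RefSeq for the 5 members with an entry (Sphkap, Cpa1, Tph2, Vav3 and Gbp2b). The windows of Gbp2b and its neighbours Gbp2 and Gbp3 are shown because these related genes lie side by side and their signals are compared below. The window of Tph2 is shown because it was the only member window with a TATA match near its start. All are printed 5′ to 3′ on the gene's own strand. Capitals mark the motif matches.
Gbp2b, chr3:142594597-142594896, plus strand: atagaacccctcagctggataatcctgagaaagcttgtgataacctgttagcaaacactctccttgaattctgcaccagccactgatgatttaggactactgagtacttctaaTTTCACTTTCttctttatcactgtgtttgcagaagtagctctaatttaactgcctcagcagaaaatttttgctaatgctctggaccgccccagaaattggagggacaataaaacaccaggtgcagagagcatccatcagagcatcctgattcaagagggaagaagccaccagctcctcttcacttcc
Gbp2, chr3:142620413-142620712, plus strand: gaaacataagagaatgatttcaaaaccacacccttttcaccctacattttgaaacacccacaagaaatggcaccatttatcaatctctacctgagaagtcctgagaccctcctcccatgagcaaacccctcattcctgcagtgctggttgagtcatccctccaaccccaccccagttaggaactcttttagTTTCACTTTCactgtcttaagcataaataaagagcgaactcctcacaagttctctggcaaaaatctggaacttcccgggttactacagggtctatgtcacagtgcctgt
Gbp3, chr3:142559794-142560093, plus strand: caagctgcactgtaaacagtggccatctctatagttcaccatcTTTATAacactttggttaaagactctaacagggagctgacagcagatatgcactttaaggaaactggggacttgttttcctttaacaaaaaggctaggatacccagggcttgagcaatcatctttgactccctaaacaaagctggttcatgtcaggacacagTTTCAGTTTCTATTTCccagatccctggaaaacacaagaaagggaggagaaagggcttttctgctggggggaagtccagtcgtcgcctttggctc
Tph2, chr10:115184973-115185272, minus strand: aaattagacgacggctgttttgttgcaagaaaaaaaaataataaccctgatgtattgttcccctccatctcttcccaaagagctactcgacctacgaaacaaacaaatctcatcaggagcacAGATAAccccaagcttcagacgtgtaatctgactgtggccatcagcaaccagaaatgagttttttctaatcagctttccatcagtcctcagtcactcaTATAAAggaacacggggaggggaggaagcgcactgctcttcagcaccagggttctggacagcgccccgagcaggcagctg

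Both strands of each window were searched for 4 motifs, where N is any base. AAGGTCA, the letters bound by NR5A1, occurred in none of the member windows and in 4.72% of 32851 RefSeq windows of this length. The letters AGATAA, bound by GATA factors, occurred in the Tph2 window, with its first base 128 bases before the start, and in 11.18% of all windows. TATAAA occurred in the Tph2 window 30 bases before the start and in the downstream Vav3 window 221 bases before it, and in 13.62% of all windows. In the printed Gbp3 window it occurred on the opposite strand, 207 bases before the start. TTTCNNTTTC, letters of the element bound by interferon regulatory factors, occurred once in Gbp2b (137 bases before the start) and once in Gbp2 (59 bases before). In the printed Gbp3 window it occurred at 45 and at 39 bases before the start, as overlapping matches, and it was held by 3.44% of all windows. A further RefSeq window of Gbp3, not printed, had no match to any of the motifs. A match is a run of letters and not a site shown to be used.

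The start regions differed in base composition. The 2 overlapping upstream windows of Vav3 had a GC content of 74.3% and 78.0% with 33 and 40 CpG dinucleotides, against a median of 52.67% and 7 CpG over all windows. The Gbp2b window had 44.0% GC and 1 CpG, and 5.4% of all windows had fewer. Cpa1 had 43.7% GC and 2 CpG, Tph2 47.3% and 9, Sphkap 59.0% and 7, and the downstream Vav3 window 44.7% and 6. The 5 members shared neither a CpG-rich nor a CpG-poor start.

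**Figure D1:**
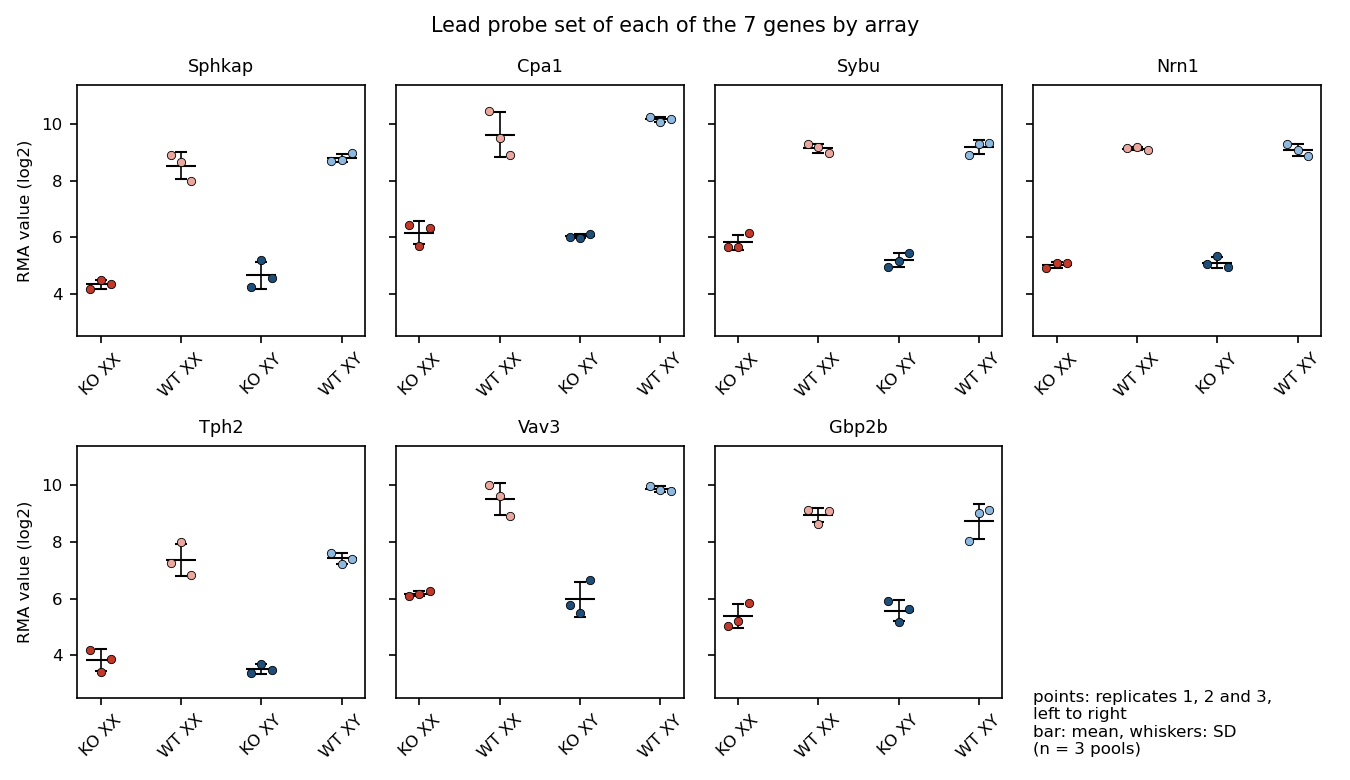
Values of the lead probe set of each of the 7 genes on the 12 arrays, with the group on the x axis and the log2 value on the y axis; points are pools, the bar is the mean and the whiskers the SD (n = 3). In every panel all 3 KO pools of a sex lie below all 3 WT pools of that sex, by gaps of 2.10 to 3.96. The 7 genes were picked on these contrasts, and over all genes the share with all KO pools below all WT pools was 12.5% in XX and 18.1% in XY.

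The signalling and trafficking genes come first. Sphkap had 4.18, 4.50 and 4.35 in KO XX, against 8.91, 8.67 and 7.99 in WT XX. It had 4.26, 5.19 and 4.55 in KO XY, against 8.71, 8.72 and 8.98 in WT XY. The KO pools lay far below the WT pools in both sexes, with no overlap. The difference was -4.18 ± 0.23 in XX, 18.1-fold lower in KO, and -4.13 ± 0.23 in XY, 17.6-fold lower in KO. Without WT XX replicate 1 the difference in XX was -3.99.

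Sybu, the kinesin-1 adaptor, had 5.67, 5.66 and 6.14 in KO XX, against 9.28, 9.18 and 8.98 in WT XX. It had 4.94, 5.18 and 5.45 in KO XY, against 8.90, 9.30 and 9.35 in WT XY. KO and WT pools of the same sex did not overlap. The difference was -3.32 ± 0.17 in XX (and -3.25 without WT XX replicate 1) and -3.99 ± 0.17 in XY (15.9-fold lower in KO).

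Vav3, the guanine nucleotide exchange factor, had 6.09, 6.17 and 6.27 in KO XX, against 10.03, 9.62 and 8.92 in WT XX. It had 5.77, 5.49 and 6.66 in KO XY, against 9.98, 9.83 and 9.81 in WT XY. The spread was wide in WT XX (SD 0.56) and KO XY (SD 0.61) and narrow in KO XX and WT XY (SD 0.09 in each), and no pools overlapped between genotypes. The difference was -3.35 ± 0.27 in XX (10.2-fold lower in KO, and -3.09 without WT XX replicate 1) and -3.90 ± 0.27 in XY (14.9-fold lower in KO).

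The genes with neuronal roles elsewhere followed the same order. Nrn1 had 4.90, 5.09 and 5.11 in KO XX, against 9.15, 9.18 and 9.07 in WT XX. It had 5.05, 5.32 and 4.94 in KO XY, against 9.30, 9.09 and 8.88 in WT XY. Its pools were the most tightly grouped of the 7 genes, with group SDs of 0.06 to 0.21, and the gap between the genotypes in XX, 3.96, was the widest. The difference was -4.10 ± 0.13 in XX (17.2-fold lower in KO, and -4.09 without WT XX replicate 1) and -3.99 ± 0.13 in XY (15.9-fold lower in KO).

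Tph2, the serotonin-synthesis enzyme, had 4.20, 3.42 and 3.88 in KO XX, against 7.27, 7.98 and 6.83 in WT XX. It had 3.37, 3.70 and 3.48 in KO XY, against 7.62, 7.23 and 7.41 in WT XY. No pools overlapped between genotypes, and the KO values were low. On the XX arrays, which lack the Y-linked gene Eif2s3y, its brighter probe set read 3.12 to 3.73, a range that holds the Tph2 values of all 3 KO XY pools and of KO XX replicate 2. The folds of Tph2 are therefore given as lower bounds. This low level differs between probe sets, since the brightest Xist probe set read 5.81 to 6.09 on the XY arrays. How near the KO values of the other members lie to the low level of their own probe sets was not tested. Their folds may therefore be lower bounds too. The difference was -3.53 ± 0.24 in XX (at least 11.6-fold lower in KO, and -3.58 without WT XX replicate 1) and -3.90 ± 0.24 in XY (at least 14.9-fold lower in KO).

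The digestive and the interferon-inducible gene completed the set. Cpa1 had 6.44, 5.70 and 6.34 in KO XX, against 10.47, 9.50 and 8.90 in WT XX. It had 6.03, 5.98 and 6.12 in KO XY, against 10.26, 10.07 and 10.18 in WT XY. WT XX was the only group of Cpa1 with a wide spread (SD 0.79, against 0.07 to 0.41 in the others), and its replicate 1 was the highest of all pools. The difference was -3.46 ± 0.29 in XX (11.0-fold lower in KO, and -3.04 without WT XX replicate 1) and -4.13 ± 0.29 in XY (17.5-fold lower in KO).

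Gbp2b had 5.05, 5.22 and 5.85 in KO XX, against 9.13, 8.65 and 9.08 in WT XX. It had 5.93, 5.17 and 5.64 in KO XY, against 8.02, 9.04 and 9.12 in WT XY. WT XY replicate 1 lay about 1 below its group mates and still 2.10 above the highest KO XY pool. The difference was -3.58 ± 0.28 in XX (11.96-fold lower in KO, and -3.49 without WT XX replicate 1) and -3.15 ± 0.28 in XY (8.88-fold lower in KO). With the Gapdh difference as a covariate, the XY difference became -3.58 for Sphkap and -3.39 for Cpa1, and it ran from -3.87 (Nrn1) to -3.22 (Gbp2b) for the other 5 genes.

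The median difference over the 7 genes was -3.53 in XX and -3.99 in XY, beside -0.0182 and 0.0067 over all 18193 genes. At an adjusted p under 0.05 the background share of all genes that were lower in KO was 5.4% in XX and 6.75% in XY, and the share that were higher was 8.3% in XX and 6.56% in XY. Since the 7 genes were chosen on these contrasts, their place in them is a description. Ranked from the most negative difference, Sphkap was 4th and Nrn1 5th in XX, followed by Gbp2b (8th), Tph2 (9th), Cpa1 (10th), Vav3 (12th) and Sybu (13th). In XY, Sphkap was 4th, Cpa1 5th, Sybu 7th, Nrn1 8th, Tph2 9th, Vav3 10th and Gbp2b 24th. Among genes close to the members in these rankings but not picked, the activin subunit Inhbb was 11th in XX (-3.42) and the aldehyde dehydrogenase Aldh1a7 was 11th in XY (-3.88).

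The extra probe sets of Sphkap and Vav3 were not alike. The second Vav3 probe set, 1417122_at, had group means of 4.95 ± 0.12 in KO XX and 8.19 ± 0.49 in WT XX, a difference of -3.24, and of 4.57 ± 0.66 in KO XY and 8.44 ± 0.03 in WT XY, a difference of -3.87. These are close to the differences of the lead probe set, -3.35 and -3.90. The third, 1417123_at, stayed low in all groups, at 4.32 ± 0.15 in KO XX, 4.82 ± 0.22 in WT XX, 4.35 ± 0.08 in KO XY and 4.45 ± 0.04 in WT XY, and its pools overlapped between genotypes in XY but not in XX, where the difference was -0.50 and the gap 0.11. The second Sphkap probe set, 1431069_at, was also low throughout, at 3.25 ± 0.13 in KO XX, 3.80 ± 0.24 in WT XX, 3.33 ± 0.26 in KO XY and 3.58 ± 0.08 in WT XY. Its pools too overlapped in XY and not in XX, where the difference was -0.55 and the gap 0.19. Averaging all probe sets of a gene reduced the difference to -2.36 in XX and -2.19 in XY for Sphkap and to -2.36 in XX and -2.62 in XY for Vav3. The platform annotation gives the same sequence record for all 3 Vav3 probe sets and a different one for each Sphkap probe set. The sources used here do not place them on their transcripts.

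**Figure D2:**
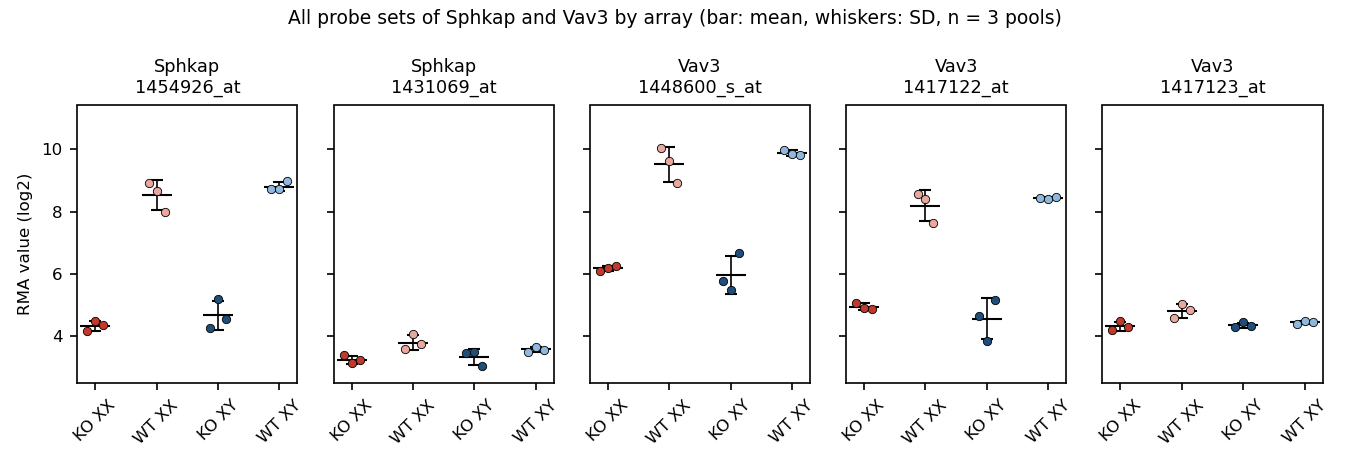
Values of the 2 probe sets of Sphkap and the 3 of Vav3 on the 12 arrays, with the group on the x axis and the log2 value on the y axis; points are pools, the bar is the mean and the whiskers the SD (n = 3). Sphkap 1454926_at, Vav3 1448600_s_at and Vav3 1417122_at lie well apart between genotypes, while Sphkap 1431069_at and Vav3 1417123_at stay between 3.03 and 5.03 in all groups.

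Whether the genes differ between XY and XX gonads is a comparison that was not itself used to pick them, and limma tested it over all genes. It shares its group means with the contrasts that were used, so it is not independent of the selection. None of the 7 passed in KO or in WT, where the background shares were 0.033% (6 genes) in KO and 0.0605% (11 genes) in WT. Over all genes 1822 had an unadjusted p under 0.05 in KO and 1899 in WT. The member with the smallest p in KO was Sybu, whose XY minus XX difference was -0.63 ± 0.17 (unadjusted p = 0.0022, adjusted p = 0.415). The other differences in KO ran from -0.31 ± 0.24 for Tph2 (adjusted p = 0.66) to 0.32 ± 0.23 for Sphkap (adjusted p = 0.635).

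In WT the largest difference was that of Cpa1, 0.55 ± 0.29 (adjusted p = 0.509), and 1 array changed its call. Without WT XX replicate 1 it was 0.97 ± 0.20 (adjusted p = 0.00971), with XY higher, and with array weights it was 0.78 ± 0.21 (adjusted p = 0.0393). The other 6 ran from -0.22 for Gbp2b (adjusted p = 0.816) to 0.35 for Vav3 (adjusted p = 0.657). A p that misses the threshold does not show that the sexes are alike. The loss in KO was larger in XY for 4 genes (Sybu, Cpa1, Vav3 and Tph2, by 0.67, 0.66, 0.55 and 0.37) and larger in XX for 3 (Gbp2b, Nrn1 and Sphkap, by 0.43, 0.12 and 0.05), which is given without a test because both contrasts served the selection.

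**Figure D3:**
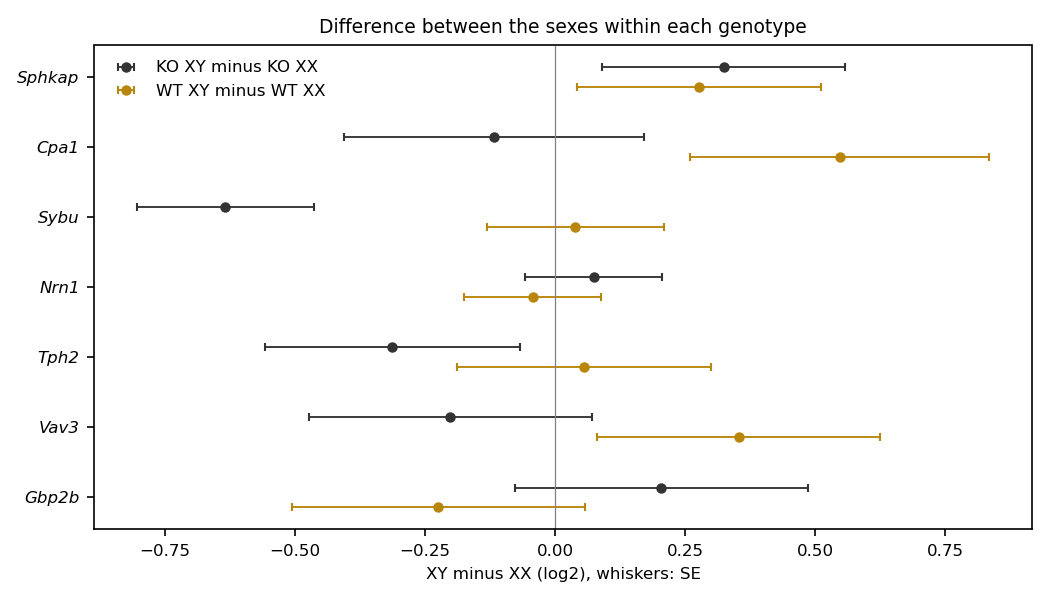
XY minus XX difference of each of the 7 genes within KO and within WT, with the log2 difference on the x axis, the gene on the y axis and whiskers showing the SE. No difference passed the test, and the largest in size are those of Sybu in KO (-0.63) and Cpa1 in WT (0.55).

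The order of the pools within a group was alike across most members in WT XX, the group whose arrays were least alike by correlation. There, replicate 1 was the highest pool for 5 of 7 genes and replicate 3 the lowest for 6 of 7, with mean deviations from the group mean of 0.28 and -0.36. In each of the other groups, the pool that was most often highest or lowest was so for 3 or 4 genes. The likeness of any pair of genes was measured as the root mean square difference between their values, each centred on its own mean, over the 12 arrays. Over the 21 pairs of members it ran from 0.31 (Sphkap and Nrn1) through a median of 0.46 to 0.67 (Sphkap and Gbp2b). All 7 share the large genotype difference by selection, so their likeness to each other is no finding.

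The same measure was taken for the non-member genes, leaving out predicted or clone-like symbols such as those ending in Rik. The genes most like a member came from a short list of 5. They were Pnliprp2, a pancreatic lipase-related gene, Gadd45g, a stress-response gene needed for testis determination in mice, Kctd14, a potassium channel tetramerisation domain gene, Inhbb, the activin and inhibin beta B subunit, and Sprr2d, a small proline-rich protein gene. Gadd45g was nearest to Sybu (0.21), Tph2 (0.32) and Nrn1 (0.41), Pnliprp2 to Vav3 (0.31), Cpa1 (0.34) and Sphkap (0.52), and Inhbb to Gbp2b (0.36). Kctd14 followed Gadd45g for Sybu at 0.25. Gadd45g averaged 8.22 ± 0.40 in KO XX and 11.35 ± 0.23 in WT XX, and 7.70 ± 0.18 in KO XY and 11.54 ± 0.02 in WT XY. Genes with a large difference between genotypes are alike by this measure mainly through that difference.

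The neighbours on the chromosome were then compared, since position did not enter the selection. For each member these are the nearest 2 measured genes on each side, 28 in all. In KO, 7 of them fell in XX and 5 in XY, and 8 fell in XX or XY, against a background share of 8.27% of all genes lower in XX or XY. Of the 28, 2 rose in XX and 3 in XY, and 17 passed in neither sex and neither direction. The genes that fell in both sexes were Gbp2 and Kyat3 beside Gbp2b, Trhde beside Tph2, and Prmt6 beside Vav3.

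Gbp2, a paralog of Gbp2b that starts 1.5 kb beyond its end, had 6.04, 6.01 and 6.16 in KO XX, against 8.93, 8.39 and 7.71 in WT XX. It had 6.71, 5.95 and 6.33 in KO XY, against 8.94, 8.74 and 8.60 in WT XY. The KO pools were all below the WT pools, and Gbp2 fell by 2.27 ± 0.24 in XX (adjusted p = 2.19e-05) and fell by 2.43 ± 0.24 in XY (adjusted p = 1.04e-05). Its second probe set averaged 4.55 in KO XX against 6.43 in WT XX, and 4.55 in KO XY against 6.80 in WT XY. The name of the lead Gbp2 probe set ends in x_at, which marks probes that can also bind related sequences, and the part of paralogs in its signal was not tested.

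Kyat3, a kynurenine aminotransferase 81.8 kb beyond Gbp2b, had 8.33, 8.51 and 8.81 in KO XX, against 10.13, 9.77 and 10.10 in WT XX. It fell by 1.45 ± 0.14 in XX (adjusted p = 9.97e-06) and fell by 1.46 ± 0.14 in XY (adjusted p = 7.88e-06). On the other side, the paralog Gbp3, 21.6 kb away, fell by 0.78 ± 0.16 in XX (adjusted p = 0.00457), and its value in XY was -0.35 ± 0.16 (adjusted p = 0.186). Gbp7, 44.7 kb away, had -0.25 in XX and -0.38 in XY (adjusted p = 0.402 and 0.193). Thus 3 of the 4 genes around Gbp2b fell in at least 1 sex.

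Trhde, a peptidase that degrades thyrotropin-releasing hormone, lies 276.3 kb from Tph2. It had 3.07, 3.26 and 3.29 in KO XX, against 3.92, 4.54 and 4.10 in WT XX, and 2.93, 3.12 and 3.13 in KO XY, against 4.65, 4.86 and 5.14 in WT XY. It fell by 0.98 ± 0.16 in XX (adjusted p = 0.000808) and fell by 1.82 ± 0.16 in XY (adjusted p = 3.06e-06). The KO values of Trhde lay within or below the 3.12 to 3.73 that Eif2s3y read on the XX arrays, so its losses are lower bounds. Tbc1d15, on the other side of Tph2 at 12.8 kb, had 0.28 in XX and 0.01 in XY (adjusted p = 0.0794 and 0.963).

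The neighbours that rose in both sexes by their brightest probe sets were Pid1 and, beside Vav3, Slc25a24. Pid1, a phosphotyrosine-interaction domain gene 627.9 kb from Sphkap, had 8.65, 8.97 and 8.49 in KO XX, against 6.83, 7.20 and 7.50 in WT XX. It had 8.80, 8.86 and 8.69 in KO XY, against 6.88, 7.35 and 6.91 in WT XY, and rose by 1.53 ± 0.18 in XX (adjusted p = 4.23e-05) and by 1.73 ± 0.18 in XY (adjusted p = 1.23e-05). Its other probe sets averaged 4.50 and 3.91 in KO XX against 4.73 and 4.01 in WT XX, and 4.77 and 3.96 in KO XY against 4.55 and 3.84 in WT XY. With all 3 averaged the rise was 0.40 in XX (adjusted p = 0.0271) and 0.69 in XY (adjusted p = 0.000712). The next gene, the Notch ligand Dner, rose in XY by 1.43 ± 0.42 (adjusted p = 0.0358), a call lost in 10 of 21 alternatives, and had 0.67 ± 0.42 in XX (adjusted p = 0.336). Daw1, 44.9 kb on the other side of Sphkap, had 0.02 in XX and 0.09 in XY (adjusted p = 0.93 and 0.708).

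Few calls came from the neighbours of Cpa1, Sybu and Nrn1. Around Cpa1, its paralog Cpa5 (7.5 kb away) had 0.04 in XX and -0.13 in XY (adjusted p = 0.842 and 0.51), and Cep41 (8.1 kb) had 0.04 and -0.33 (adjusted p = 0.903 and 0.195). Cpa4 fell by 0.53 in XX (adjusted p = 0.0434), a call lost in 15 of 20 alternatives, and Mest, an imprinted gene, fell by 0.48 in XY (adjusted p = 0.0135), which was lost when KO XY replicate 1 or 2, or WT XY replicate 2 or 3, was left out. Around Sybu, Ebag9 (30.3 kb) had 0.12 and -0.26 (adjusted p = 0.571 and 0.177) and A930017M01Rik (93.3 kb) 0.15 and -0.06 (adjusted p = 0.448 and 0.807). Around Nrn1, Fars2 (188.0 kb) had 0.13 and 0.06 (adjusted p = 0.581 and 0.853) and F13a1 (132.7 kb) 0.41 and 0.34 (adjusted p = 0.204 and 0.306).

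Around Vav3, the mitochondrial carrier Slc25a24 (172.1 kb) rose in XX by 0.67 ± 0.13 (adjusted p = 0.00365) and in XY by 0.44 ± 0.13 (adjusted p = 0.0428), where the call was lost without any one of the 6 XY arrays and with the Gapdh covariate (adjusted p = 0.46). Ntng1 (94.4 kb), a netrin-related gene, fell in XX by 0.49 ± 0.13 (adjusted p = 0.02), which was lost without KO XX replicate 1 or 3 or WT XX replicate 1, and had -0.33 in XY (adjusted p = 0.111). Prmt6, an arginine methyltransferase gene, fell by 0.68 in XX (adjusted p = 0.0125) and fell by 0.57 in XY (adjusted p = 0.0344). Its XX call was lost when only the XX groups were fitted or when KO XX replicate 2 or 3 or WT XX replicate 2 was left out. Its XY call was lost when any KO XY array, or replicate 2 or 3 of WT XY, was left out. The difference of Prmt6 was -0.37 in XX with all probe sets averaged and -0.90 in XY with the Gapdh covariate.

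**Figure D4:**
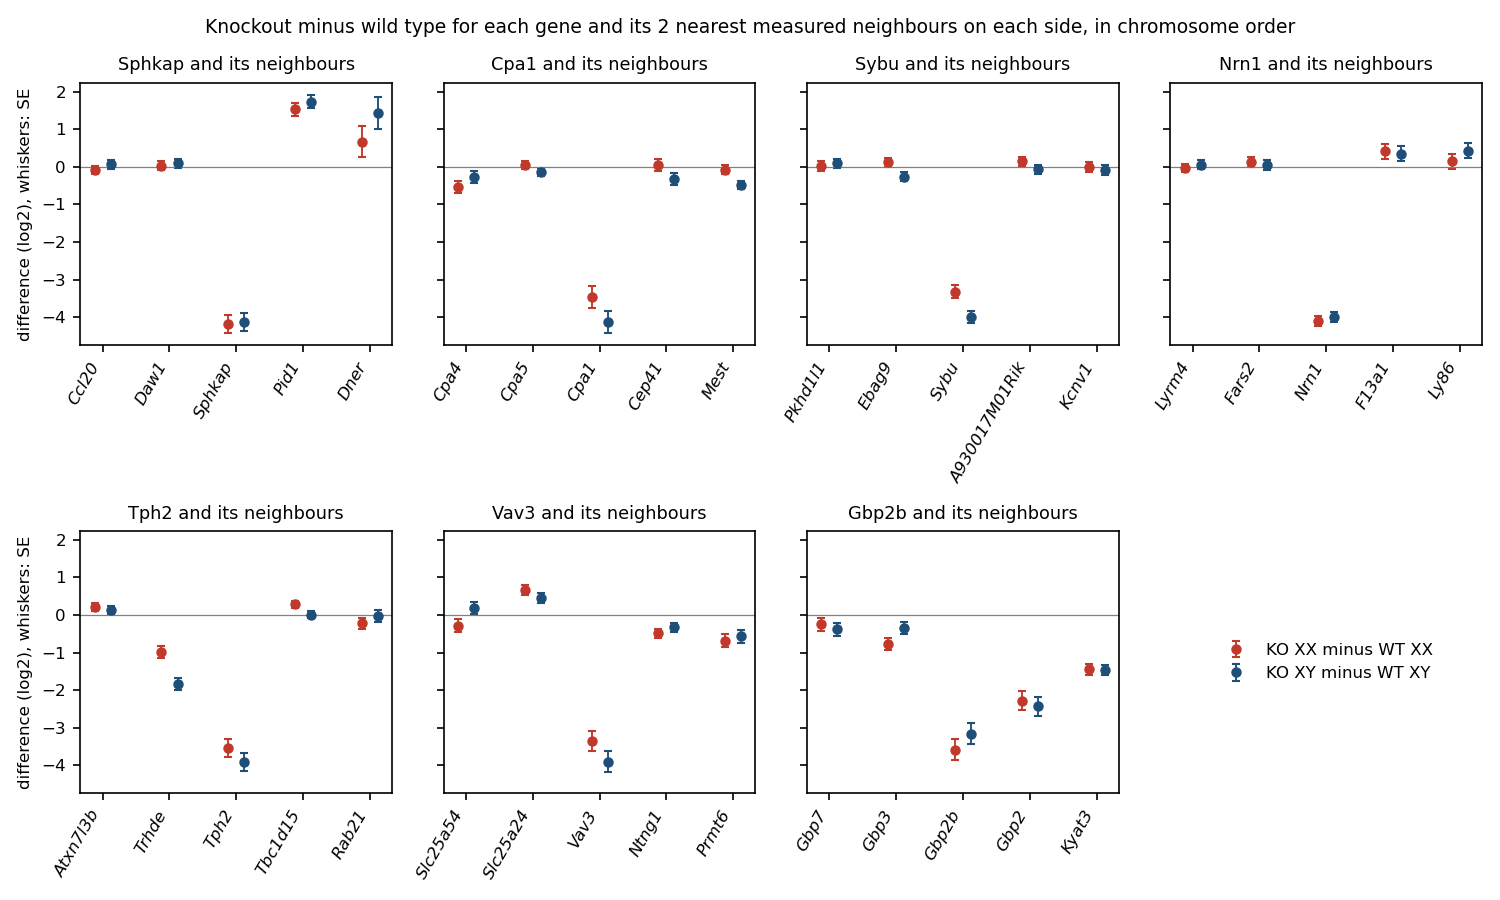
Knockout minus wild-type difference of each member and its nearest 2 measured neighbours on each side, in chromosome order along the x axis, with the log2 difference on the y axis and whiskers showing the SE, for XX and XY. The genes next to Sybu and Nrn1 did not pass the test and lie between -0.26 (Ebag9 in XY) and 0.43 (Ly86 in XY). Gbp2 (-2.27 and -2.43) and Kyat3 (-1.45 and -1.46) are low beside Gbp2b, and Pid1 (1.53 and 1.73 by its brightest probe set) is high beside Sphkap.

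Finally, textbook partners and paralogs of the 7 proteins were examined as 7 lists of companion genes, of which 6 are described one by one. Of 148 companion genes, 127 were measured. In KO XX, 12 (9.45%) fell and 14 (11.0%) rose, beside 5.4% and 8.3% of all genes. In KO XY, 15 (11.8%) fell and 11 (8.66%) rose, beside 6.75% and 6.56% of all genes. The median difference of the companions was -0.065 in XX and 0.0074 in XY. Among the companions, Gbp2 had the largest loss in both sexes.

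Of 25 genes of protein kinase A anchoring, 5 rose and 2 fell in XX and 3 rose and 3 fell in XY. The scaffold Akap12 rose by 1.11 ± 0.12 in XX (adjusted p = 2.92e-05) and by 0.71 ± 0.12 in XY (adjusted p = 0.00121). The scaffold Akap9 fell by 0.67 ± 0.14 in XY (adjusted p = 0.00461) and had -0.31 in XX (adjusted p = 0.167). Prkar2b, a type II regulatory subunit, fell by 0.37 in XX (adjusted p = 0.0465), lost in 17 of 21 alternatives, and fell by 0.52 in XY (adjusted p = 0.00715). Prkar1b, a type I regulatory subunit, fell by 0.52 in XX (adjusted p = 0.0353), a call lost in 9 of 21 alternatives. In XY it had -0.40 (adjusted p = 0.105). Prkar1a, also of type I, fell by 0.49 in XY (adjusted p = 0.0363), lost in 8 of 21. In XX it had -0.44 (adjusted p = 0.0562). With the Gapdh covariate the XY calls of Akap9 and Prkar2b were lost (adjusted p = 0.0735 and 0.0682).

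Of 12 carboxypeptidases, 3 rose and 2 fell in XX and 1 rose and 1 fell in XY. Cpz, an extracellular carboxypeptidase that binds Wnt proteins, rose by 1.48 ± 0.13 in XX (adjusted p = 4.65e-06) and by 0.95 ± 0.13 in XY (adjusted p = 0.000194). Cpe, which processes prohormones, fell by 0.85 ± 0.17 in XX (adjusted p = 0.00414) and fell by 0.71 ± 0.17 in XY (adjusted p = 0.0142), the XY call being lost without WT XY replicate 2 or 3 and with all probe sets averaged (adjusted p = 0.0833). With the Gapdh covariate the XY difference of Cpe was -1.18. Cpm, a membrane-bound enzyme, rose in XX by 0.85 ± 0.21 (adjusted p = 0.0147), lost without KO XX replicate 2 or WT XX replicate 1 or 2 and with only the XX groups fitted (adjusted p = 0.0648), and had -0.01 in XY. The A-type paralogs Cpa3 (-0.15 in XX and 0.13 in XY) and Cpa6 (0.29 and 0.17) did not pass.

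Of 16 genes of kinesin-1 transport, 1 rose and 1 fell in XX and 1 rose and 2 fell in XY. The kinesin-1 heavy chain Kif5b fell by 0.37 ± 0.10 in XX (adjusted p = 0.0291), lost without KO XX replicate 2 or WT XX replicate 1 or 3, and by 0.50 ± 0.10 in XY (adjusted p = 0.00426), lost with the Gapdh covariate (adjusted p = 0.103). The XX call of Kif5b was also lost with array weights and with only the XX groups fitted. Rhot1, which couples mitochondria to kinesin, fell by 0.60 ± 0.16 in XY (adjusted p = 0.0193), a direction that turned when all its probe sets were averaged (0.06, adjusted p = 0.74). This call was also lost with the Gapdh covariate and without KO XY replicate 2 or any WT XY array. Snap25 rose by 0.70 in both sexes (adjusted p = 0.0383 in XX and 0.038 in XY), calls lost in 10 and 7 of 20 alternatives. Its WT values, 3.02 to 3.44, lay within or below the range that Eif2s3y read on the XX arrays. Snph, a mitochondrial docking protein that also binds syntaxin, had -0.10 in XX and -0.02 in XY (adjusted p = 0.671 and 0.956).

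Of 7 neurotrophins and receptors, 2 rose in XX and 3 in XY, and none fell. The neurotrophin receptor Ntrk3 rose by 0.75 ± 0.17 in XX (adjusted p = 0.0075) and by 0.92 ± 0.17 in XY (adjusted p = 0.00172), and Ntrk2 by 0.64 ± 0.17 (adjusted p = 0.0195) and 0.77 ± 0.17 (adjusted p = 0.00607). Neither passed when all their probe sets were averaged, neither passed in XY with the Gapdh covariate, and the XX call of Ntrk2 was lost without KO XX replicate 1 or 2 or WT XX replicate 1. The neurotrophin Ntf5 rose in XY by 0.64 ± 0.15 (adjusted p = 0.0105, and 0.316 with the Gapdh covariate) and had 0.35 in XX (adjusted p = 0.157). Nrn1l, the paralog of Nrn1, had -0.01 in XX and 0.08 in XY (adjusted p = 0.959 and 0.716).

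Of 23 genes of serotonin and tetrahydrobiopterin metabolism, 2 rose and 2 fell in XX and 2 rose and 3 fell in XY. Tph1, the peripheral tryptophan hydroxylase, had -0.13 in XX and 0.23 in XY (adjusted p = 0.461 and 0.204). Ddc, which makes serotonin from the Tph2 product, rose by 1.12 ± 0.14 in XX (adjusted p = 7.56e-05) and by 0.57 ± 0.14 in XY (adjusted p = 0.0124), the XY call being lost when KO XY replicate 3, or WT XY replicate 1 or 2, was left out. With all probe sets averaged the XX rise of Ddc was 0.60 (adjusted p = 0.00346). The receptor Htr2b rose by 1.17 ± 0.20 in XX (adjusted p = 0.00101) and by 0.69 ± 0.20 in XY (adjusted p = 0.0314), the XY call being lost when KO XY replicate 1 or 2, or WT XY replicate 1 or 3, was left out. Slc18a2, the vesicular monoamine transporter, fell by 1.28 ± 0.24 in XY (adjusted p = 0.00187) and had -0.37 in XX (adjusted p = 0.341). Gch1 fell by 0.95 ± 0.20 in XX (adjusted p = 0.00438). In XY it fell by 0.63 ± 0.20 (adjusted p = 0.047), a call lost in 11 of 20 alternatives. Pcbd1 fell by 0.42 in XX (adjusted p = 0.0405), lost in 11 of 21 alternatives. In XY it fell by 0.53 (adjusted p = 0.0122), lost in 3 of 21. The XY calls of Ddc and Htr2b were also lost with the Gapdh covariate. No companion passed the test of the difference between the KO effects in XY and in XX.

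Of the paralogs of Vav3, Vav2 fell by 0.76 ± 0.15 in XX (adjusted p = 0.00365) and fell by 0.55 ± 0.15 in XY (adjusted p = 0.0268), the XY call being lost when KO XY replicate 1 or 2, or WT XY replicate 2 or 3, was left out, and with all probe sets averaged (-0.43 in XX, adjusted p = 0.00505, and -0.23 in XY, adjusted p = 0.115). With the Gapdh covariate it was -0.86 in XY. Vav1, the blood cell paralog, had -0.32 in XX and 0.08 in XY (adjusted p = 0.26 and 0.83).

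Of 24 guanylate-binding and interferon-gamma genes, 3 fell and 1 rose in each sex. Besides Gbp2 and Gbp3, the receptor chain Ifngr2 fell by 0.62 ± 0.11 in XX (adjusted p = 0.00158) and fell by 0.44 ± 0.11 in XY (adjusted p = 0.0155), the XY call being lost when replicate 1 of KO XY or of WT XY was left out, and with the Gapdh covariate. With all probe sets averaged the XY difference of Ifngr2 was -0.71. The kinase Jak1 fell by 1.05 ± 0.18 in XY (adjusted p = 0.000883, and 0.098 with the Gapdh covariate). Iigp1, an interferon-inducible GTPase, rose by 0.84 ± 0.16 in XX (adjusted p = 0.00238) and by 1.17 ± 0.16 in XY (adjusted p = 0.000146). The paralogs Gbp6 (0.24 in XX and 0.28 in XY) and Gbp8 (0.06 and 0.05) did not pass.

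**Figure D5:**
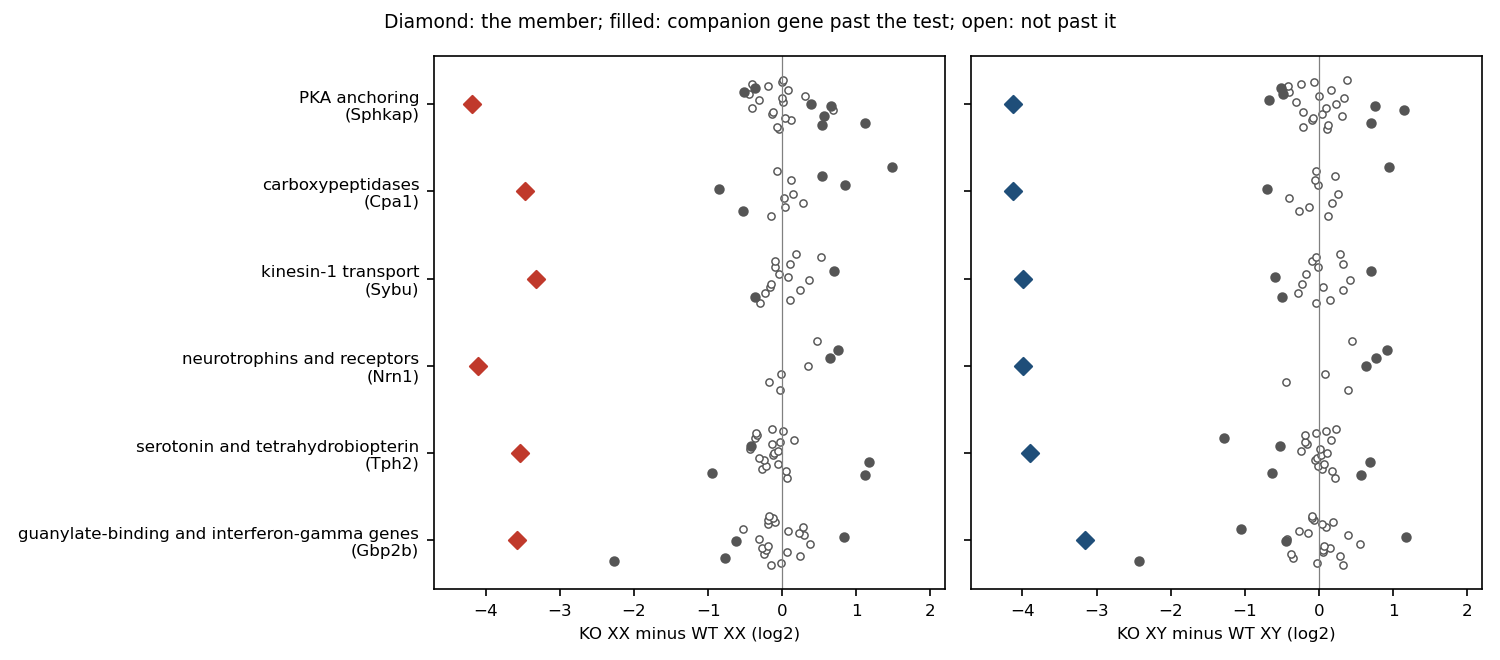
Knockout minus wild-type difference (log2, x axis) of each member (diamond) and of its companion genes (circles, filled where the test was passed), one row for each of 6 lists, with XX on the left and XY on the right. The members shown, which were picked for large losses, lie between -4.18 and -3.15, and Gbp2 (-2.27 in XX and -2.43 in XY) is the lowest companion.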

How the data were processed

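Gene expression was measured on 12 Affymetrix arrays, 3 pools for each of 4 groups. The authors deposited log2 values made with RMA, which corrects background, quantile-normalizes arrays and summarises probe sets. Per the submitters' processing notes, Affymetrix Expression Console, RMA and affy were used (versions not given in the sources used here). Values ran from 2.37 to 15.01, array medians from 5.88 to 5.94, and the number of arrays limits precision. Raw scans were not analysed here.

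Of 45101 probe sets, 64 were controls, 34945 were annotated to 1 gene and 932 to several. The 34741 matched by gene identifier needed no symbol change. Where several probe sets measured a gene, the brightest on average stood for it. Groups were taken from titles and genotype labels. limma 3.58.1 in R 4.3.3 fitted 4 group means (8 residual degrees of freedom), with Benjamini-Hochberg adjustment over 18193 genes, two-sided, and calls at an adjusted p under 0.05. The steps were tested on simulated data.

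The members and lists were chosen with earlier results of these data known. Named genes were the members, close paralogs and the up to 3 companions per list with the smallest p among those that passed, the nearest neighbours and any other neighbour that passed, the 3 genes most like each member and the gonadal markers. The companion list of Vav3 enters the joined counts, and its members other than the paralogs are, for a reason unrelated to their values, not reported here. Other markers, and the companions Gch1, Pcbd1, Prkar1a and Prkar1b, were named after their values were seen. Alternatives were other normalizations, a low-value filter, all probe sets averaged, other variance priors, array weights, a replicate block, only the contrast's groups, a Gapdh 3' minus 5' covariate and each array left out. Same-numbered replicates of different groups deviated with correlations of -0.21 to 0.28, so the numbers do not pair samples.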

Additional observations from a re-analysis of the deposited data

How the results depend on the processing

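Single-gene differences were recomputed under 21 alternatives for 110 and under 20 for 28, which the low-value filter removed. Of 2870 values, 2614 kept their side of the threshold or, for untested member differences, stayed within the replicate SD, 215 fell short of the threshold, 34 newly passed it and 6 untested member differences moved by more than the SD. The remaining one was a called difference that turned (Rhot1 in XY, 0.062 with all probe sets averaged). Of the 2614, 46 changed sign without passing the test before or after, over 19 differences, among them XY minus XX in KO for Cpa1 (up to 0.70), Vav3 (up to 0.26) and Nrn1. No member difference between KO and WT changed sign. With a low-value filter, 589 genes fell in XX, 9 companions rose in XX, 6 rose in XY and 5 neighbours fell. With array weights, 1 member (Cpa1) differed between the sexes in WT, 1996 genes fell in XY and 24 companions rose in XY. With only the groups of the contrast, 602 genes fell in XX, 7 companions fell and 8 rose in XX, and 19 rose in XY. With the Gapdh covariate, 479 genes fell in XY, and 6 companions fell and 3 rose in XY. With each array left out in turn, genes that fell numbered 773 to 970 in XX and 835 to 1615 in XY (lowest without KO XY replicate 2, highest without WT XX replicate 1). Companions that fell numbered 8 to 13 in XX and 9 to 16 in XY, those that rose 10 to 15 in XX and 6 to 17 in XY, neighbours that fell 6 to 8, and members that differed between the sexes 0 in KO and 0 to 1 in WT. A replicate block gave 985 genes that fell in XX and 1312 in XY, with 9 companions falling and 13 rising in XX and 15 and 11 in XY, and 7 neighbours falling; none of these counts moved by over 1.5 times. The causes of these shifts were not tested.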
